A study of Homo sapiens with 2 samples.

Results

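Before a cell can copy its DNA, it loads the MCM helicase onto replication origins with the help of the origin recognition complex (ORC), CDC6 and CDT1, a step called licensing. The kinases CDC7 and CDK2 then bring in CDC45 and the GINS complex, which turn the loaded ring into a running helicase, and polymerases, clamp, clamp loader and fork protection factors follow. E2F transcription factors switch on many of these genes at the boundary between G1 and S phase, and MYC is known to promote the same transition. A list of 60 genes of origin licensing, the replication fork and the E2F family was followed here, and 34 of them had a probe set named by the platform annotation, among 14884 named genes in all. For genes with more than 1 named probe set, the brighter one over both arrays was used.

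The cells were HT1080, an established human fibrosarcoma cell line. Per the labels, cells of one sample received an shRNA (short hairpin RNA) against cMyc and those of the other a non-targeting control shRNA. Both were harvested 48 hours after infection with shRNA virus, and the series' design text speaks of transfection instead. RNA of each was read on 1 Affymetrix whole-transcript array. With 1 array per condition there is no spread between replicates, no test was possible and no p-value is given, so every difference describes these 2 arrays.

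Values are log2 expression as deposited, and a difference is the cMyc shRNA array minus the control array. A difference of -1 is 2-fold lower, the size used to count genes. A gene was called measured when its mean on both arrays was at or above the median of all probe sets, 3.70, and all 34 named genes passed. The only available error is technical: over 416 genes with several measured probe sets, the SD of a single log2 difference was 0.34. The matching SD of a gap between the differences of 2 genes was 0.48, and gaps beyond 0.95, or 2 such SDs, are named as such. Without genes whose probe sets had nearly equal levels, the SD of a single difference was 0.37 over 337 genes. Gaps little above 0.95 are therefore borderline. MYC, at which the shRNA was aimed, read 7.09 in control cells and 6.16 after cMyc shRNA (-0.93, or 1.91-fold lower), the direction its label gives. The difference of MYC fell short of 2-fold, and 4.71% of all measured genes were as low or lower. Of the mesenchymal markers listed for a fibrosarcoma, 7 of 14 were named and 6 of these were measured. On the control and cMyc shRNA arrays FN1 read 12.4 and 12.6, and VIM 9.94 and 9.34. CD44 read 9.25 and 9.17, and TIMP1 9.02 and 9.15. THBS1 read 12.5 and 11.4 (2.09-fold lower), and the dimmer TAGLN 5.27 and 4.54. S100A4 (3.06 and 3.39) was below the level filter. Of 6 named epithelial markers 4 were measured, with KRT18 at 9.09 and 8.41. EPCAM (2.73 and 3.07) and all 3 named endothelial markers stayed below the level filter. CD14 was below it as well, while CD68, the other named haematopoietic marker and a lysosomal protein, read 10.4 and 11.3.

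Promoter sequences are given first for the lowest pair of genes, DTL and CCNA2, and for the pair nearest to 0, PCNA and E2F3, because this contrast runs through the results. They are RefSeq sequences of GRCh38.p14 from 250 bases before to 50 after the first listed start of each gene, 5′ to 3′ on the gene's own strand. DTL lies on the plus strand (chr1:212035498-212035797), CCNA2 on the minus strand (chr4:121823834-121824133), PCNA on the minus strand (chr20:5126573-5126872) and E2F3 on the plus strand (chr6:20401629-20401928). Capitals mark matches on either strand to an E2F motif (TTTCCCGC, TTTCGCGC, TTTGCCGC or TTTGGCGC), to the CCAAT box (CCAAT), to the cell cycle homology region CHR (TTTGAA) and to the E-box bound by MYC and MAX (CACGTG). None of the matches overlapped another in these 4 windows.
DTL: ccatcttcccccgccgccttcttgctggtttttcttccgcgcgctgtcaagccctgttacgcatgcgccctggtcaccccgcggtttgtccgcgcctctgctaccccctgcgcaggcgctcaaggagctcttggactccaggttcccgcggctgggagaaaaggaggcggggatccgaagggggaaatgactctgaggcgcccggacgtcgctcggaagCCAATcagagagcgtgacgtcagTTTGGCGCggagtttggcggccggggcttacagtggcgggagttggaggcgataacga
CCNA2: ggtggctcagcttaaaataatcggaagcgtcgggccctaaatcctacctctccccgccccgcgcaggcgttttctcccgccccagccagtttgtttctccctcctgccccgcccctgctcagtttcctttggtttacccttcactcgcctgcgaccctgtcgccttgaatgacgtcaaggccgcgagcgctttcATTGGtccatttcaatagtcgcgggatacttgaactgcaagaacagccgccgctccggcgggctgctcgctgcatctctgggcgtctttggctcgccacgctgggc
PCNA: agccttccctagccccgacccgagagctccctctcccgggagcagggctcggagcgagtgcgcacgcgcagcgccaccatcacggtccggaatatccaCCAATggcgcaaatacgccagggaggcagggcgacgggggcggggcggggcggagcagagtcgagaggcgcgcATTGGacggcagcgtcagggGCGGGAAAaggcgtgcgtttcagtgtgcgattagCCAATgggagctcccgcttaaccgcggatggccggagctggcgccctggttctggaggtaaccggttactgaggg
E2F3: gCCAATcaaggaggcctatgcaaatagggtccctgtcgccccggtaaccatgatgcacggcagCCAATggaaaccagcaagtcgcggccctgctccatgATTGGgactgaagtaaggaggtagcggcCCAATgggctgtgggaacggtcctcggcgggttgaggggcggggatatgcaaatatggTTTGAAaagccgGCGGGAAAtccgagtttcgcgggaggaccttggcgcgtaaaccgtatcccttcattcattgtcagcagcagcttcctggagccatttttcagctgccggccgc

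DTL held 1 E2F match, TTTGGCGC, starting 8 bases before the start site. PCNA and E2F3 each held the match GCGGGAAA, the reverse complement of TTTCCCGC, starting 59 and 53 bases before it. An E2F match was thus present in the lowest gene and in the pair nearest to 0, though as different words. These 4 windows were picked by their differences, and a link between match and difference was not tested. CCNA2 held a CCAAT box on the other strand but none of the 4 E2F words, and none of these 4 windows held the E-box CACGTG. These letters in a window are a description of sequence and not evidence of binding.

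Across the 34 measured genes the cMyc shRNA array was mostly lower. The median log2 difference was -1.23 (2.35-fold lower), with quartiles of -1.52 and -0.77, and a range from -2.47 for DTL to 0.39 for E2F7. The median over all 10258 measured genes was -0.01. A total of 22 of the 34 (64.7%) were lower by at least 2-fold, where the background over all measured genes was 4.0%. Higher by that much were 0, against a background of 2.01%. Below 0 lay 32 of the 34, where the background was 51.3%. At least 4-fold lower were DTL, CCNA2 and MCM10, against a background of 0.478%. The lowest 5% of all measured genes held 23 of the 34. Only E2F2, E2F3, E2F8, TIPIN and PCNA lay within 1 technical SD of 0, as did 56.5% of all measured genes. The control values correlated with the cMyc shRNA values across the 34 genes with r = 0.88, a description over genes that share both arrays.

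**Figure D1:**
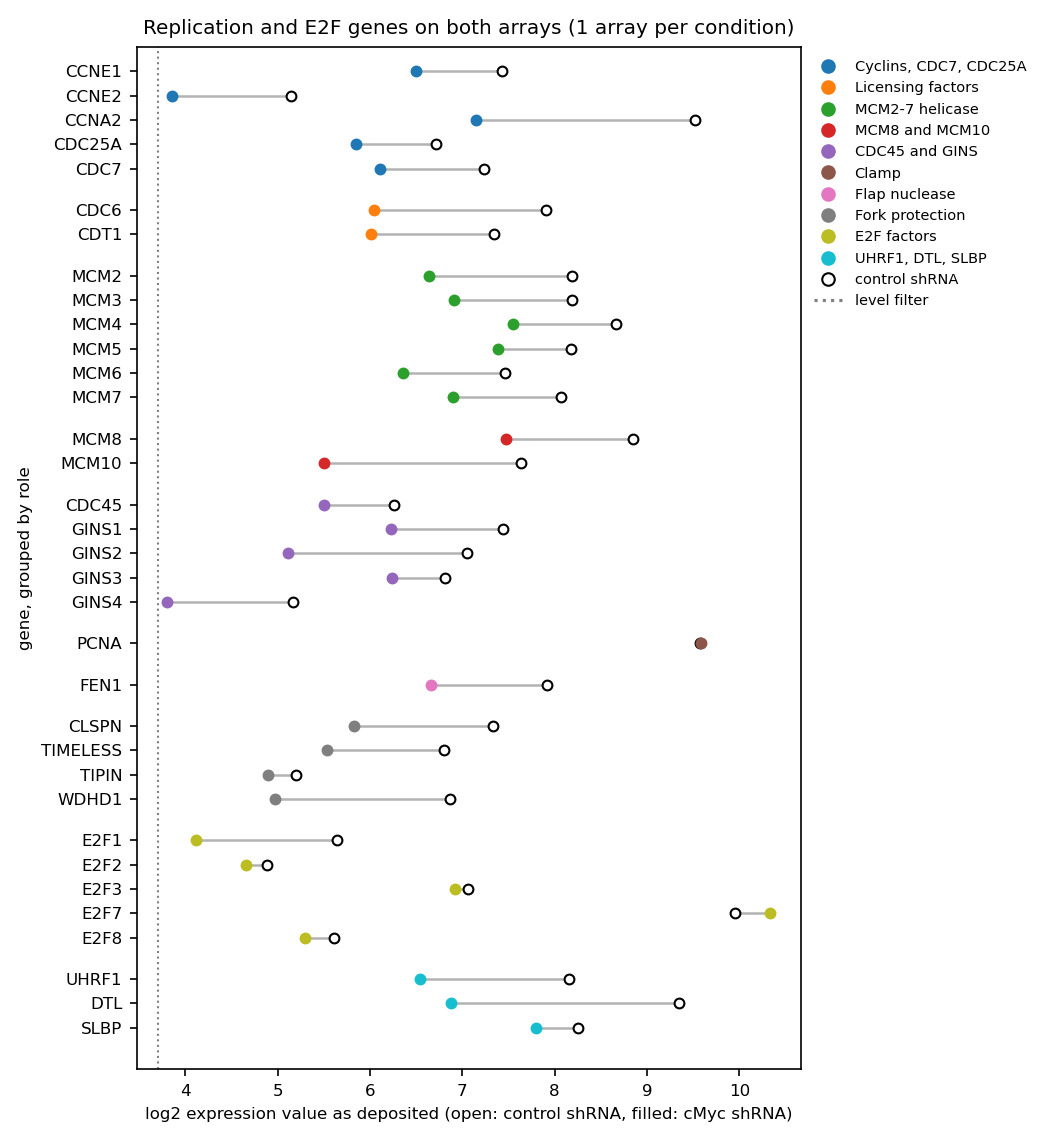
Deposited log2 expression (x axis) of the 34 measured genes, grouped by role (y axis), on the control array (open circles) and the cMyc shRNA array (filled circles, coloured by role), with the level filter at 3.70 as a dotted line. The filled circle lies left of the open one for 32 genes, coincides with it for PCNA and lies right of it for E2F7.

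Among the genes that start S phase, cyclin A stood lowest. CCNA2, the cyclin that activates CDK2 in S phase and CDK1 later, read 9.52 on the control array and 7.14 after cMyc shRNA, which was 5.18-fold lower. The E-type cyclins, which activate CDK2 at the entry to S phase, differed by less. CCNE1 went from 7.43 to 6.50 (1.91-fold lower) and CCNE2 from 5.14 to 3.85 (2.45-fold lower). CDC25A, the phosphatase that removes inhibitory phosphates from CDK2, read 6.72 and 5.85 (-0.87), and the origin-firing kinase CDC7 read 7.24 and 6.11 (-1.13). All 5 were below 0, and 3 passed 2-fold, where the backgrounds were 51.3% and 4.0%. The gap between CCNA2 and each of the other 4 was beyond 0.95, the smallest being 1.08 for CCNE2, and none of the gaps among those 4 was.

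Both licensing factors with a value were lower. CDC6, the ATPase that ORC recruits to load the helicase, read 7.91 on the control array and 6.04 after cMyc shRNA (3.64-fold lower). CDT1, which escorts the MCM ring to the origin, read 7.35 and 6.01 (2.53-fold lower). DTL, the substrate receptor of the CRL4 ubiquitin ligase that destroys CDT1 in S phase, was the lowest of all 34 genes. It read 9.35 and 6.88 (5.52-fold lower) and ranked 13 from the bottom among the 10258 measured genes. The licensing factor and the receptor for its destruction were thus both lower on the same array. The CDT1 inhibitor GMNN and all 6 ORC genes had no named probe set here, so this describes licensing without the origin recognition complex.

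The MCM2 to MCM7 genes, which encode the 6 subunits of the replicative helicase ring, formed the most even group of at least 4 genes. MCM2 read 8.18 on the control array and 6.64 after cMyc shRNA (2.91-fold lower), the lowest of the ring. MCM3 read 8.18 and 6.91 (2.42-fold lower), and MCM4 read 8.67 and 7.54 (2.18-fold lower). MCM6 went from 7.47 to 6.35 and MCM7 from 8.06 to 6.90, differences of -1.11 and -1.17. MCM5 was nearest to 0, at 8.18 and 7.38 (1.73-fold lower), and the only 1 of the 6 short of 2-fold, a fall reached by 4.0% of all measured genes. The SD of the 6 differences was 0.24, smaller than the technical SD of 0.34, and 0 of the 15 gaps between subunits were beyond 0.95. At this precision the order of the subunits therefore could not be told.

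The MCM genes outside the ring were lower too. MCM10, which helps to activate the loaded helicase, read 7.63 and 5.50 on the control and cMyc shRNA arrays (4.38-fold lower). MCM8, a helicase subunit known for its role in homologous recombination, read 8.85 and 7.47 (2.60-fold lower).

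The factors that complete the running helicase differed among themselves. CDC45 read 6.26 on the control array and 5.50 after cMyc shRNA (1.70-fold lower). The 4 GINS subunits form 1 complex, yet their differences ran from -1.94 to -0.58. GINS2 read 7.05 and 5.11 (3.85-fold lower), and GINS3 read 6.82 and 6.24 (1.49-fold lower), a gap of 1.37. GINS1 lay between them, at 7.44 and 6.23 (-1.21). GINS4 read 5.16 and 3.80 (-1.36) on its brighter probe set and 3.07 and 2.78 (-0.29) on the other, which was below the level filter. Of the 10 gaps in this group 2 were beyond 0.95, both with GINS2, against GINS3 and CDC45. With the mean over probe sets in place of the brighter one, GINS4 had -0.83 and the group median moved from -1.21 to -0.83.

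At the fork itself the clamp and the flap nuclease, which bind each other on the lagging strand, behaved differently. PCNA, the sliding clamp that holds polymerases on DNA, read 9.58 on the control array and 9.59 after cMyc shRNA, a difference of 0.01 that became -0.04 after median centring. FEN1, which removes the flaps of Okazaki fragments, read 7.92 and 6.66 (2.39-fold lower). PCNA was read by 1 named probe set, and its difference lay in the middle of all measured genes, 52.5% of which were as low or lower. All 5 RFC clamp loader genes, all 8 listed polymerase and primase genes, the 3 RPA genes and LIG1 had no named probe set here. The polymerase part of the fork is therefore not described.

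**Figure D2:**
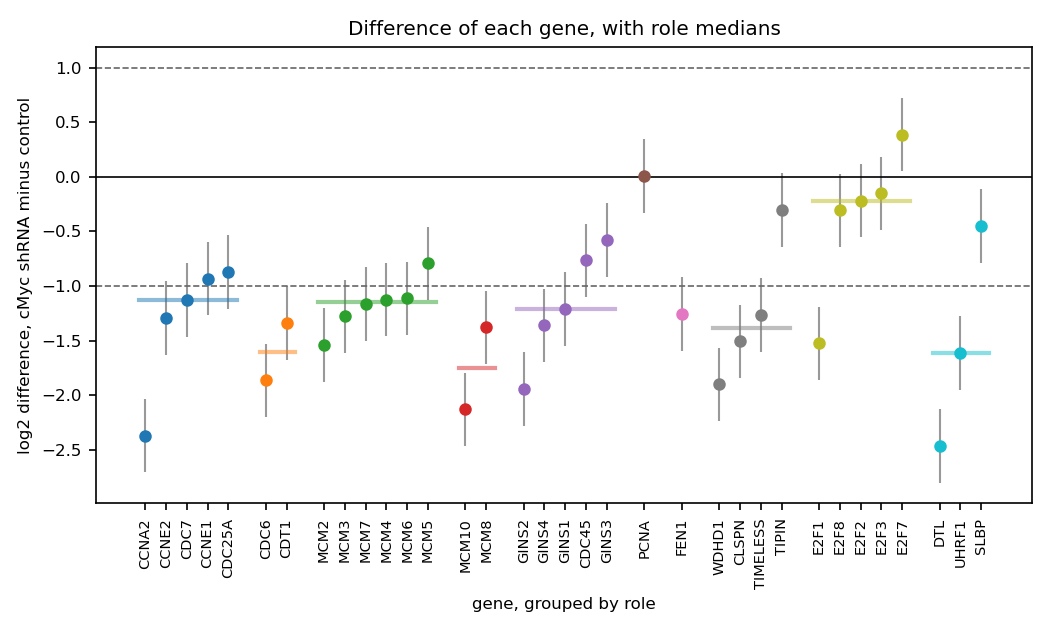
Log2 difference of each of the 34 genes (y axis, cMyc shRNA minus control), ordered within roles (x axis). Points are single values, bars are 1 technical SD (0.34), coloured lines are medians of roles with at least 2 genes, and dashed lines mark 2-fold. The MCM2 to MCM7 points lie close together, from -1.54 to -0.79, while CCNA2, E2F1 and SLBP each lie beyond 0.95 from every other gene of their role.

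Of the 4 fork protection genes, 3 were lower by more than 2-fold, against a background of 4.0%, and TIPIN was near 0. TIMELESS and TIPIN bind each other and couple the helicase to the polymerases. TIMELESS read 6.80 on the control array and 5.54 after cMyc shRNA (2.40-fold lower), whereas TIPIN read 5.19 and 4.89 (-0.30). The gap of 0.96 lay at the limit of 0.95, and it was 0.91 after quantile normalization and 0.92 after loess, both inside it. CLSPN, the checkpoint adaptor that works with them, read 7.34 and 5.83 (2.84-fold lower) on its brighter probe set. Its other probe set, below the level filter, read 3.08 and 2.74 (-0.34), and the mean of both was -0.93. WDHD1, which links the helicase to DNA polymerase alpha, read 6.87 and 4.97 (3.73-fold lower).

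The E2F family showed 1 gene low and the others close to 0. E2F1, an activator of S-phase genes, read 5.65 on the control array and 4.12 after cMyc shRNA (2.88-fold lower). The other activators lay nearer to 0: E2F2 read 4.88 and 4.66 (-0.22) and E2F3 read 7.07 and 6.92 (-0.15). E2F2 was dim on both arrays, so the size of its difference is less certain than that of E2F3. E2F7 and E2F8 are atypical members that repress E2F targets. E2F8 read 5.61 and 5.30 (-0.31). E2F7 read 9.95 and 10.3, a difference of 0.39 and the only 1 of the 34 above the technical SD on the higher side. Of all measured genes, 82.9% were as low as E2F7 or lower, so a rise of this size was not unusual between the arrays. All 4 gaps between E2F1 and the other E2F genes were beyond 0.95, from 1.22 to 1.91, and none of the 6 gaps among those others was. The median of the 5 genes was -0.22, and a stricter filter at the 75th percentile, which left E2F3 and E2F7 alone, gave 0.12.

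Genes of chromatin copying and histone supply were measured in part. UHRF1, which brings the maintenance methyltransferase to newly copied DNA, read 8.16 on the control array and 6.55 after cMyc shRNA (3.06-fold lower). SLBP, which binds the stem-loop of histone mRNA, read 8.25 and 7.80 (-0.45). The gap between them was 1.16. The chromatin assembly genes CHAF1A and CHAF1B had no named probe set.

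**Figure D3:**
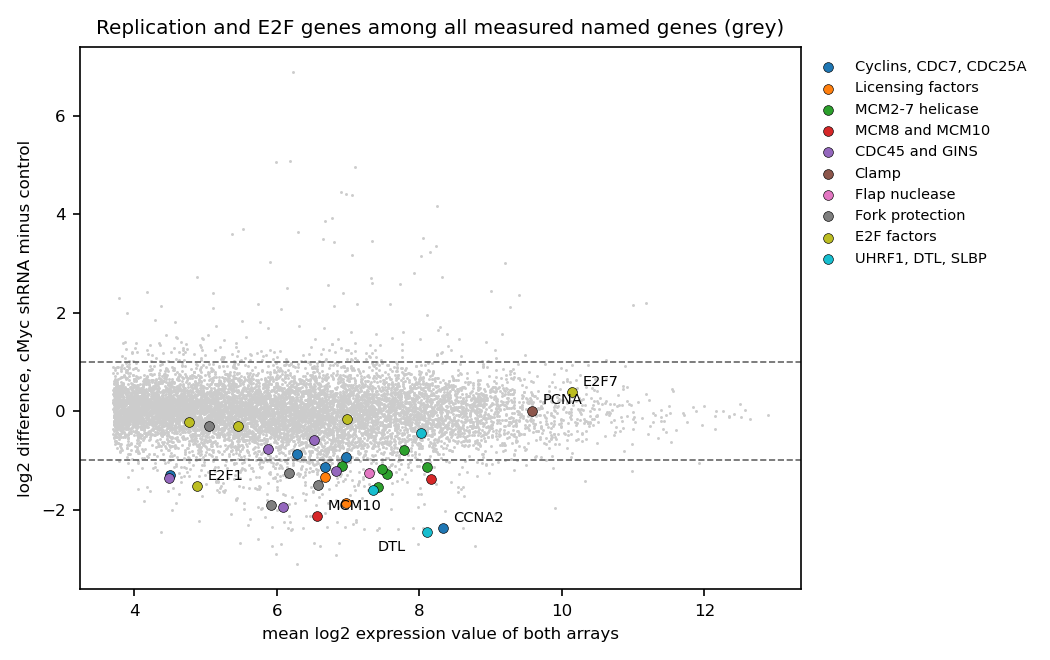
Log2 difference (y axis) against mean log2 expression of both arrays (x axis) for all 10258 measured named genes (grey) and the 34 replication and E2F genes (coloured by role). Dashed lines mark 2-fold, and 22 of the 34 lie on or below the lower line. These had mean levels from 4.48 (GINS4) to 8.33 (CCNA2), and the brightest genes, PCNA (9.58) and E2F7 (10.1), were not below 0. Level and difference correlated with r = 0.11 over the 34 genes, a description over genes on the same arrays.

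Other genes of replication, the G1/S transition and the E2F network were read from a separate list of 72, of which 46 were measured. On the cMyc shRNA array 21 of the 46 (45.7%) were lower by at least 2-fold and 0 higher by that much, against the same backgrounds of 4.0% and 2.01%. Their median difference was -0.89. The 5 lowest were TOP2A, the topoisomerase that untangles copied chromosomes (9.80 to 7.42), RRM2, a subunit of ribonucleotide reductase (7.97 to 5.72), the exonuclease EXO1 (6.90 to 4.75), the cohesin acetyltransferase ESCO2 (6.54 to 4.54) and the transcription factor MYBL2 (7.19 to 5.32). The 5 highest were LIN37 (0.34), a subunit of the DREAM repressor complex, the helicases RECQL4 (0.27) and MCM9 (0.21), RB1 (0.19) and CUL4B (0.19). RB1 is a pocket protein and CUL4B a ligase scaffold. All 5 lay at or within the technical SD of 0.34. The other listed LIN genes were below 0, namely LIN9 (-1.20), LIN54 (-0.51) and LIN52 (-0.28). So were the other pocket protein genes, RBL1 (-1.26) and RBL2 (-0.47).

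Some genes of that list are direct partners of those above and were picked out after their values were seen. DBF4, the activating subunit of CDC7, differed by -1.17, and CDC7 itself by -1.13, while DBF4B, the other activating subunit, differed by -0.33. TFDP1, the DNA-binding partner of the E2F activators, read 7.21 and 6.16 (-1.05), and TFDP2 differed by 0.02. CDK2, the kinase that CCNE1, CCNE2 and CCNA2 activate, differed by -1.08. TICRR, which loads CDC45 onto origins, differed by -1.43, and its partner TOPBP1 by -0.58. DONSON, another factor of helicase activation, differed by -0.19.

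A list of 30 mitotic genes, 24 of them measured, is set beside these values with no test of the difference. It and the interferon list below were chosen with earlier results of these data known, so their counts are not independent evidence. On the cMyc shRNA array 23 of the 24 mitotic genes were lower by at least 2-fold, and 16 of them by at least 4-fold. The backgrounds over all measured genes were 4.0% and 0.478%, and the mitotic median was -2.39. The replication and E2F genes had 22 of 34 and 3 of 34 at those sizes. On the same array all 14 named genes of an interferon list of 20 were at least 2-fold higher than on the control. The background for that size was 2.01%, and the median difference of the 14 genes was 4.28. Of these, 6 read below 3.70 on the control array, so the sizes of their differences are uncertain. The part of this in the replication values was not tested. In RNA of a whole culture, fewer cells in S phase and less mRNA per cell cannot be told apart.

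**Figure D4:**
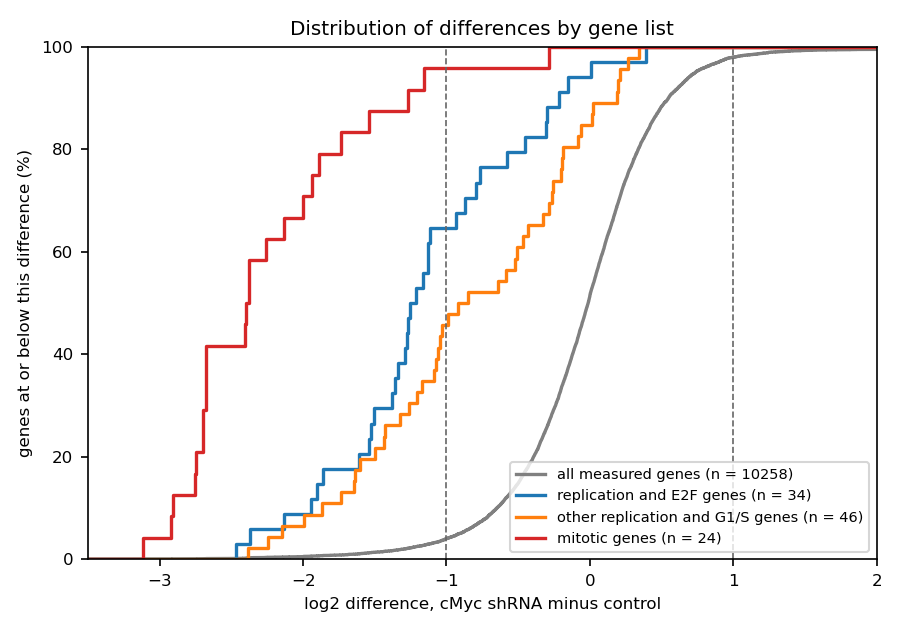
Percentage of genes (y axis) at or below each log2 difference (x axis, cMyc shRNA minus control) for all 10258 measured genes, the 34 replication and E2F genes, 46 other replication and G1/S genes and 24 mitotic genes. At the lower dashed line (2-fold lower) the curves stand at 4.0%, 64.7%, 45.7% and 95.8%.

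The promoter table held 29 of the 34 genes, all but CCNE2, MCM4, MCM5, GINS4 and E2F8. In the first listed window, 18 of the 29 (62.1%) held at least 1 of the 4 E2F words, against 3.33% of the windows of 27305 genes and 5.24% of those of 7900 measured genes. Counting any listed start gave 20 of 29, against 3.99% of the 27305 genes. Within the list, genes with and without a match had similar values: the median difference was -1.31 over the 18 with one and -1.13 over the 11 without. Over all measured genes with a promoter the medians were -0.09 with a match and -0.01 without. The match was held by genes far below 0, such as DTL, GINS2 and CDC6, and by PCNA, E2F2 and E2F3 near 0.

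The E-box CACGTG was in 5 of the 29 windows (17.2%), against 7.43% of all and 9.87% of measured genes, namely those of MCM2, MCM7, MCM8, FEN1 and TIMELESS. Their median was -1.26, beside -1.17 for the 24 without it. The CCAAT box was in 20 of 29 (69.0%), against 35.7% of all and 36.2% of measured genes, with medians of -1.27 with it and -1.13 without. The CHR word TTTGAA was in 1 window, that of E2F3, against 15.4% of all and 9.78% of measured genes. Only this exact word was searched, so a CHR spelled otherwise, in CCNA2 or elsewhere, was not counted. Base composition was alike: the median GC content was 64.7% in the 29 windows and 65.0% over all measured genes with a promoter.

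Of the 29 genes, 9 had another gene starting on the opposite strand and pointing away within 1000 bases upstream, so that both share the stretch between their start sites. For 6 of these pairs the neighbour was measured. DTL (-2.47) faces INTS7, a subunit of the Integrator complex, whose start lies 191 bases away and which read 7.42 and 6.53 (-0.89). WDHD1 (-1.90) faces SOCS4, a suppressor of cytokine signalling, 137 bases away, which read 7.90 and 7.47 (-0.43).

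MCM8 (-1.38) faces the tRNA methyltransferase subunit TRMT6 at 119 bases, which differed by -0.29. FEN1 (-1.26) faces TMEM258, a subunit of the oligosaccharyltransferase, at 312 bases, which differed by -0.25. In these 4 pairs the gap ran from 1.01 to 1.57, beyond 0.95 each time though only little for FEN1, with the replication gene lower. In the other 2 pairs the gap was smaller: TIPIN (-0.30) beside the kinase gene MAP2K1 (-0.18), and PCNA (0.01) beside CDS2, an enzyme of phosphoinositide synthesis (6.57 to 7.30, a difference of 0.73). None of the 6 neighbours was at least 2-fold lower, which is near the background of 4.0% over all measured genes, and the replication genes were already known to be low. The search for such pairs was set up after the values of the replication genes were known.

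**Figure D5:**
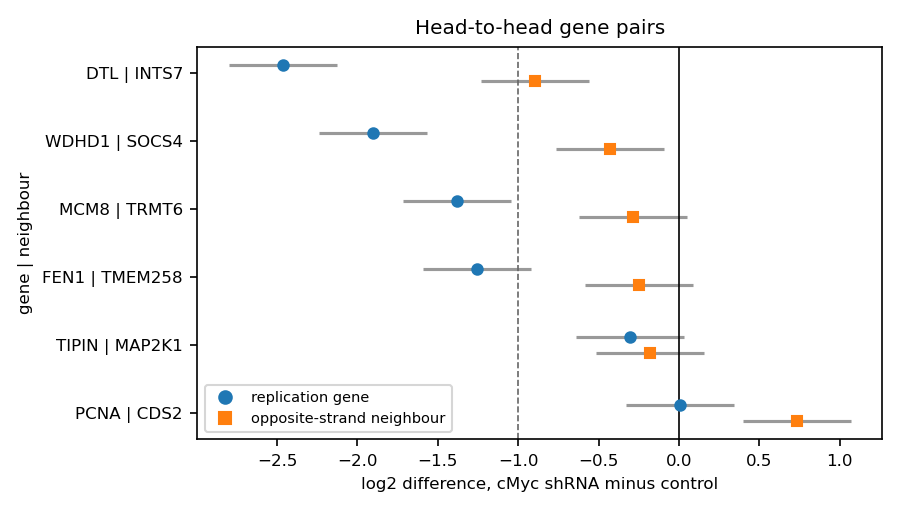
Log2 difference (x axis, cMyc shRNA minus control) of 6 replication genes (circles) and of the measured gene starting on the opposite strand within 1000 bases upstream (squares), 1 pair per row. Bars are 1 technical SD (0.34) and the dashed line marks 2-fold lower. The neighbours lie between -0.89 and 0.73, and the circle is left of the square in all 6 pairs.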

How the data were processed

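The deposited table holds log2 values for 53617 probe sets on 2 arrays, made by the authors with Affymetrix Expression Console, per the submitters' processing notes. The tool's version and how it corrected background, normalized and summarized probes are not stated in those notes or labels, and the log base was inferred from the range of 1.41 to 13.9. The array medians were 3.68 (control) and 3.73 (cMyc shRNA). There are no detection calls, and precision is limited by having 1 array per condition.

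Names came from GEO's platform annotation, which gave 1 symbol to 16098 probe sets, several to 0 and none to 37519. Of the 14884 named genes, 10258 were measured by the level filter. Differences were computed with Python 3.11.15, pandas 2.3.3 and numpy 2.4.6, loess with statsmodels 0.14.6, and the scripts were tested on simulated data. All genes of the list were described by role, with 5 lowest and 5 highest genes of the wider pathway list. The members, lists and alternatives were chosen with earlier results of these data known, so their direction is not independent evidence. Promoters came from RefSeq (GRCh38.p14), and 7 of the genes had several listed starts. No genome build is named for the arrays. The alternatives were 3 scalings, 2 level filters, the mean over probe sets and a 1.5-fold rule.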

Additional observations from a re-analysis of the deposited data

How the results depend on the processing

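No paired analysis was possible because there was 1 array per condition, and for the same reason no replicate could be left out. Over the 3 scalings, 2 level filters and the mean over probe sets, the median of the replication and E2F genes stayed between -1.28 and -1.15. Median centring, quantile normalization and loess each called the same 22 genes at least 2-fold lower, against backgrounds of 4.45%, 3.58% and 3.80%. The mean over probe sets called 20, without CLSPN (-0.93) and GINS4 (-0.83), against a background of 3.90%. CLSPN and GINS4 have a second, dimmer probe set, and the median of CDC45 and GINS moved to -0.83. The level filter at the 75th percentile left 28 genes and 19 calls, without CCNE2, E2F1 and GINS4, against a background of 5.17%. It turned the median of the remaining E2F genes, E2F3 and E2F7, to 0.12. Of all genes 126 were at least 2-fold higher, where the main filter gave 206. These changes follow from which genes were left, as the filter drops dim genes and altered no value of a single gene. At 1.5-fold, 26 of the 34 were lower, the added ones being CCNE1, CDC25A, MCM5 and CDC45. Of all measured genes 1224 (11.9%) were lower at that size and 900 higher. Under the 3 scalings, all 102 values of single genes moved by less than 0.34, at most by 0.07. Of 62 gaps between genes, also computed under these scalings after the data were seen, 1 changed its side of 0.95, that of TIMELESS and TIPIN (0.91 after quantile normalization and 0.92 after loess). Without detection calls, the sizes for GINS4 and CCNE2, which read 3.80 and 3.85 on the cMyc shRNA array, are the least certain.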
